A study of Homo sapiens with 25 samples.

Results

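RNA of HEC-1A cells given 20 µM THC for 72 h was compared with RNA of untreated HEC-1A cells, with 3 libraries in each group. HEC-1A is an established epithelial line from a human endometrial adenocarcinoma, labelled as wild type in both groups, and THC (tetrahydrocannabinol) is the main psychoactive compound of cannabis. The genes described are those whose TPM (a transcript level adjusted for length, with the same total in every library) averaged at least 1 over these 6 libraries, which held for 13943 of the 60179 genes in the table. The series has 25 samples in all, among them 3 RNA libraries after 24 h of the same dose, besides libraries of ATAC-seq (open chromatin) and of CUT&RUN for the promoter mark H3K4me3. The labels give the untreated cells neither a time nor a vehicle, so THC, solvent and time in culture cannot be told apart. All libraries come from 1 line, and nothing says that the labelled biological replicates were separate cultures, so a p-value here measures the spread between these libraries, which may be technical.

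As background, several kinds of stress lead to phosphorylation of the translation factor eIF2. This slows most protein synthesis but favours the factor ATF4, which with its partners CHOP (gene DDIT3) and ATF3 turns on genes for amino acid supply, tRNA charging and recovery. Misfolded protein in the endoplasmic reticulum (ER) also acts through the sensors IRE1 (ERN1) and ATF6, which raise chaperones and the secretory machinery. SREBP factors switch on genes of cholesterol and fatty acid synthesis when membranes lack sterol. THC is a lipophilic ligand of the cannabinoid receptors CNR1 and CNR2.

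After 72 h of THC, both ferritin chains and most stress factors, amino acid transporters, ribosomal proteins, snoRNA host genes and antigen presentation genes were higher than in untreated cells. Messages encoded in mitochondrial DNA, and many genes of glycolysis, cholesterol synthesis, DNA replication, mitosis, actin and tubulin were lower. Of the 13943 genes tested, 5575 (40.0%) were called higher and 4595 (33.0%) lower, at an adjusted p of 0.05 in limma on log2(TPM + 1). A change of at least 2-fold on that scale was called for 1123 genes (8.05%) in the higher direction and 774 genes (5.55%) in the lower direction. In 10656 genes (76.4%) the 3 values of one group all lay above the 3 of the other. In either direction 10170 genes (72.9%) were called. A call alone was therefore the common case, and counts within gene groups are to be read against these shares. In bulk RNA, fewer cells of a type and less RNA per cell cannot be told apart. Fold changes are log2 changes on log2(TPM + 1), 72 h over untreated, and understate the change of genes with low levels. A gene that averages under 1 TPM in 1 group reaches the required mean only through the other group, so its direction is fixed in advance. This holds for every such gene named or counted below. The median change over all tested genes was 0.06 on this scale.

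**Figure D1:**
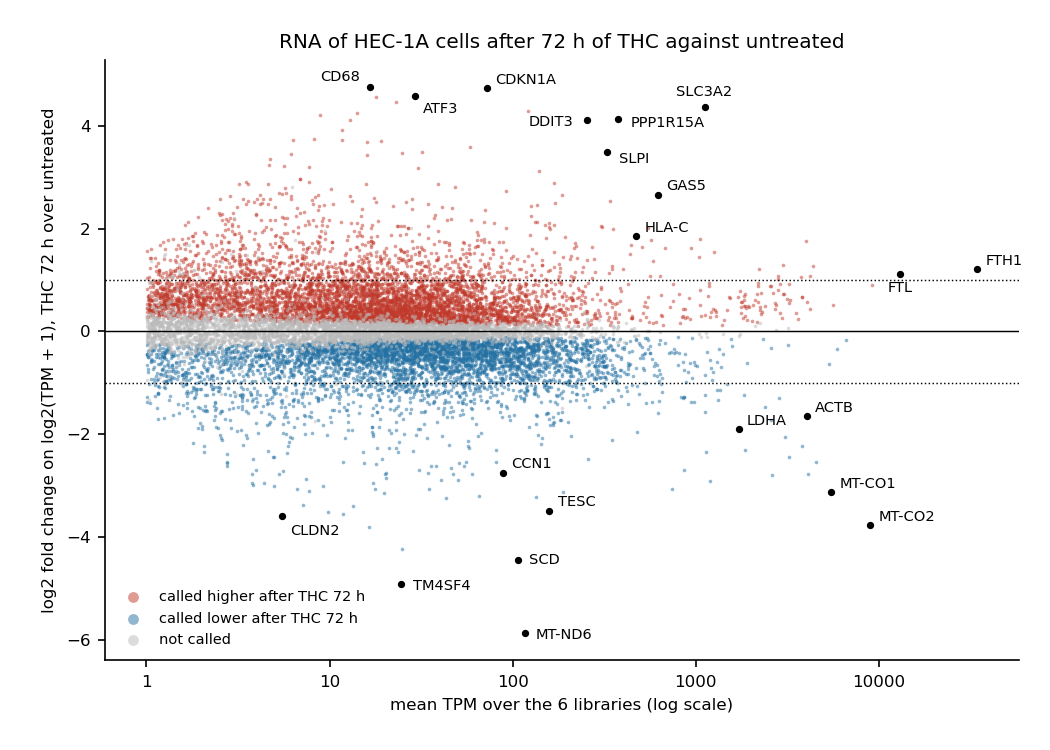
Each point is 1 of 13943 tested genes; the horizontal axis is its mean TPM over 6 libraries (log scale) and the vertical axis its log2 change, THC 72 h over untreated, with dotted lines at 2-fold, red for called higher, blue for called lower and grey for not called. CD68, CDKN1A and ATF3 stand at the top, and MT-ND6, TM4SF4 and SCD at the bottom.

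Libraries of a group resembled each other more than those of the other group, with Pearson's r across genes of 0.9892 to 0.9919 within the 72 h libraries, 0.9936 to 0.9945 within the untreated libraries and 0.9293 to 0.9339 between groups. FTH1 was the most abundant gene in all 6. Genes of mitochondrial DNA took 1.16% to 1.37% of the TPM in the 72 h libraries, against 7.0% to 7.69% in untreated libraries. Epithelial markers were present, with summed levels over 10 of 10 listed genes of 3928 to 4177 TPM after 72 h and 3218 to 3337 TPM in untreated cells. KRT8, a keratin of simple epithelia, averaged 364 ± 12 TPM after 72 h and 344 ± 7.44 TPM in untreated cells (SD, n = 3 each), a difference that was not called. The listed epithelial markers did not move together. CDH1 was called lower, by 0.40 on the log2 scale, and KRT18 and PAX8 higher, by 0.93 and 0.32. Of 14 immune cell markers 2 passed the filter, CD68 and CD8A. The list summed to 32.6 to 43.1 TPM after 72 h, most of it from CD68, and to 1.52 to 2.005 TPM in untreated cells, while PTPRC (CD45, the common leukocyte antigen) was listed at 0, 0 and 0.00670 TPM after 72 h and at 0 in every untreated library. The T cell marker CD3D, the B cell marker MS4A1 and the receptor FCGR3A were listed at 0 in all 6 libraries. Of 13 stromal markers 2 passed, COL1A1 and ACTA2, while LUM and PRL were at 0 throughout, and the sum was 3.84 to 4.51 TPM after 72 h and 9.04 to 11.1 TPM in untreated cells. None of 10 endothelial markers passed, with sums below 1 TPM in all 6 libraries. The part of such markers in the results was not tested. An exact 0 in such a table can be a failed estimate, since UQCRH, a subunit that respiring cells use, was listed at only 0.176, 0.394 and 0.288 TPM after 72 h and 0.0504, 0 and 0.158 TPM in untreated cells.

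Among genes averaging at least 5 TPM, the largest rise was that of CD68, a lysosomal membrane glycoprotein best known from macrophages. It stood at 29.1, 30.0 and 39.4 TPM after 72 h, against 0.298, 0.258 and 0.190 TPM in untreated cells, a log2 change of 4.75 ± 0.10 (SE). CDKN1A, the cell cycle inhibitor p21, had 134, 136 and 149 TPM after 72 h and 4.06, 4.45 and 4.33 TPM in untreated cells, a log2 change of 4.74. The groups did not overlap in either gene. LCN2, a secreted siderophore-binding lipocalin, rose by 4.55 on the log2 scale, with 35.9, 34.9 and 34.6 TPM after 72 h and 0.345, 0.546 and 0.762 TPM in untreated cells. PI3 (elafin) and SLPI, a pair of secreted protease inhibitors of epithelial surfaces, rose by 4.11 and 3.48. SLPI reached 566, 613 and 617 TPM after 72 h, against 51.6, 49.8 and 56.6 TPM in untreated cells. TREM1, a receptor described on myeloid cells, was listed at 19.5, 16.9 and 17 TPM after 72 h and at 0, 0 and 0.0484 TPM in untreated cells, and the leukocyte antigen PTPRC was at or near 0 in the same libraries. PLA2G4C, a cytosolic phospholipase A2, and the kelch protein gene KLHDC7B rose by 3.92 and 3.73. So did 2 long non-coding RNAs, LINC01564 by 4.25 and LINC02154 by 3.74. These 2 RNAs, CD68, LCN2, PI3, TREM1, PLA2G4C and KLHDC7B averaged under 1 TPM in untreated cells. They passed the filter only through their 72 h values, so their direction was fixed by it. KLHDC7B had a mean of 12.6 TPM after 72 h and 0.499 TPM after 24 h, a log2 difference of 3.18. It was kept and named for its high 72 h values, so this difference is not a separate test of its rise. The 72 h against 24 h contrast called 10166 of the 13943 genes (72.9%) in either direction.

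At the other end, MT-ND6, the only protein-coding gene on the light strand of mitochondrial DNA, was at 2.63, 2.78 and 3.58 TPM after 72 h and 233, 240.1 and 216 TPM in untreated cells, a log2 change of -5.86 ± 0.16 (SE; limma, adjusted p = 1.15e-09). Transcripts of the other strand run across it, and whether strand was used in counting is not stated, so its value is uncertain. TM4SF4, a tetraspan membrane protein, fell by 4.92, with 0.630, 0.715 and 0.559 TPM after 72 h and 48.6, 48.8 and 47.5 TPM in untreated cells. TINAG, a basement membrane protein of kidney tubules, fell by 4.24, and HAVCR1 (KIM-1), a surface receptor of injured kidney tubules, by 3.23. HAVCR1 had 24.2, 24.1 and 27.1 TPM after 72 h and 242, 248 and 241 TPM in untreated cells. TESC (tescalcin, a calcium-binding regulator of sodium-proton exchange) had 27.1, 22.1 and 26.7 TPM after 72 h and 298, 285 and 292 TPM in untreated cells. In HAVCR1 and TESC every 72 h library lay below every untreated one. CLDN2, a pore-forming tight junction claudin, was listed at 0 in each 72 h library and at 11.1, 10.5 and 11.5 TPM in untreated cells. AMBP, the precursor of alpha-1-microglobulin, fell by 3.52, and CST6, a secreted cystatin, by 3.40. PADI1, an enzyme that converts arginine to citrulline in proteins, fell by 3.20, the kinase gene PLK2 by 3.25 and the ankyrin repeat gene ANKRD2 by 3.56. SFTA1P and SFTA2, surfactant-associated genes known from lung, fell by 3.81 and 3.37. TM4SF4, CLDN2, AMBP and SFTA2 averaged under 1 TPM after 72 h, so their direction was fixed by the filter. SCD, the delta-9 desaturase, had the largest fall after MT-ND6 and TM4SF4, at -4.44.

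Counted in TPM, the largest gains were those of the ferritin chains, which store iron. FTH1, the heavy chain, rose to 48902, 47130.0 and 47649 TPM after 72 h, against 21232, 21157 and 19891 TPM in untreated cells, and FTL, the light chain, to 18665, 16867 and 17963 TPM, against 8545, 8046 and 7937 TPM. Next came EEF1A1 (translation elongation), TPT1 (translationally controlled tumour protein), 5 ribosomal proteins and SLC3A2. TPT1 had 5942, 6388 and 6243 TPM after 72 h and 1867, 1744 and 1889 TPM in untreated cells. The largest losses were 8 messages of mitochondrial DNA with beta-actin (ACTB) and TUBA1B, an alpha-tubulin. Ferritin, EEF1A1, TPT1, ribosomal protein, actin and tubulin genes have processed copies in the genome that can share reads, so their levels are uncertain. Because TPM has a fixed total, gains of abundant genes lower all others, and losses of abundant genes raise all others. Leaving out genes of mitochondrial DNA and rescaling changed the counts to 4878 higher and 5328 lower.

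All 12 listed stress transcription factors passed the filter and all 12 were called higher, with a median log2 change of 1.75. The least abundant of the 12 averaged 0.736 and 0.743 TPM in untreated cells, so their direction was fixed by the filter. DDIT3 (CHOP), a factor of prolonged ER stress, had 465, 482 and 497 TPM after 72 h and 26.2, 26.4 and 27.7 TPM in untreated cells. ATF3 had 59.5, 60.6 and 50.2 TPM after 72 h and 1.40, 1.45 and 1.40 TPM in untreated cells, a log2 change of 4.58 ± 0.0768 (SE; limma, adjusted p = 5.72e-11). ATF4 itself had 1023, 1011 and 1026 TPM after 72 h and 334, 321 and 333 TPM in untreated cells. For all of them the lowest 72 h library lay above the highest untreated one. TRIB3, a pseudokinase that restrains ATF4, rose by 2.5, CEBPB by 2.16, CEBPG by 1.75, MAFF by 1.71 and KLF4 by 1.56. JDP2, a repressor of AP-1, rose by only 0.26. ATF5, a factor that ATF4 is known to raise, had log2 changes of 0.68 after 72 h and -1.33 after 24 h. The 24 h and 72 h comparisons share the untreated libraries, and after 24 h 3355 genes (24.1%) were called higher and 7295 (52.3%) lower.

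Upstream of ATF4 the picture was mixed, with 6 of 18 genes higher and 10 lower. PPP1R15A (GADD34), the subunit that brings a phosphatase to eIF2 and restores translation, had 703, 702 and 721 TPM after 72 h and 42.0, 38.0 and 38.6 TPM in untreated cells, a log2 change of 4.13. Of the 4 eIF2 kinases, EIF2AK3 (PERK, the ER sensor) rose by 1.76, while EIF2AK1 (HRI) fell by 0.23. EIF2AK2 (PKR) and EIF2AK4 (GCN2) stood at -0.19 and -0.15, and their calls were lost on leaving out single libraries. EIF2AK2 came to -0.14 without THC 72 h replicate 1 or untreated replicate 2, to -0.17 without THC 72 h replicate 3 and to -0.19 without untreated replicate 3, and EIF2AK4 to -0.15 without THC 72 h replicate 2 and to -0.12 without untreated replicate 2. OMA1 and DELE1, which relay mitochondrial stress to HRI, fell by 0.34 and 0.30. Of 16 effector genes 14 passed, and 11 were called higher and 1 lower (median 1.27). ADM2, among the 11, averaged 0.456 TPM in untreated cells, so its direction was fixed by the filter. SESN2, which restrains mTORC1, rose by 2.52, and the secreted factors STC2 (stanniocalcin-2), GDF15 and ADM2 by 2.10, 2.08 and 2.52. CHAC1, which degrades glutathione, had 27.0, 26.1 and 31.1 TPM after 72 h and 6.02, 4.95 and 6.81 TPM in untreated cells. DDIT4, another inhibitor of mTORC1, rose by 0.94, and ERO1A, an ER oxidase, was the 1 member that fell, by 0.31.

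Amino acid transporters rose in 14 of the 20 that passed of 27 listed, and 3 fell (median 0.75). SLC3A2, the heavy chain shared by several heteromeric transporters, had 2226, 2119 and 2081 TPM after 72 h and 112, 107 and 89.7 TPM in untreated cells, a log2 change of 4.37 ± 0.0711 (SE; limma, adjusted p = 4.83e-11). Its partners rose less, SLC7A11 (the cystine light chain) by 1.49, SLC7A5 (LAT1) by 1.24 and SLC7A6 by 1.07. The glycine transporter SLC6A9 had 37.0, 33.3 and 38.7 TPM after 72 h and 1.77, 1.74 and 2.04 TPM in untreated cells, and SLC1A4, a neutral amino acid exchanger, rose by 2.87. SLC38A2, the glutamine and alanine transporter SNAT2, had a log2 change of 0.75 after 72 h and -0.48 after 24 h. The falls were those of SLC16A10, SLC1A3 and SLC1A1, by 0.96, 0.76 and 0.40.

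Enzymes of amino acid and one-carbon metabolism divided, with 14 of 26 higher and 10 lower. ASNS, which makes asparagine, had 213, 209.6 and 199 TPM after 72 h and 41.5, 45 and 42.9 TPM in untreated cells. The mitochondrial folate enzymes MTHFD2 and SHMT2 rose by 1.44 and 1.26, while their cytosolic counterparts MTHFD1 and SHMT1 fell by 0.70 and 1.27. TYMS, which makes thymidylate for DNA synthesis, fell by 1.16. PSAT1 of serine synthesis rose by 0.91, PSPH had a change of 0.01 and was not called, and PHGDH, the entry enzyme, was listed at 0 in all 6 libraries. GOT1, the cytosolic aspartate aminotransferase, rose by 1.07 and its mitochondrial form GOT2 fell by 0.94. CBS and GCLM of cysteine and glutathione synthesis rose by 0.74 and 0.54.

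The enzymes that charge tRNA divided by compartment. Of 20 cytosolic synthetases 12 were called higher and 5 lower (median 0.30), and of 17 mitochondrial ones 4 were higher and 9 lower (median -0.26). WARS1, for tryptophan, had 356, 333 and 325 TPM after 72 h and 103, 109.8 and 107 TPM in untreated cells. AARS1 (alanine), CARS1 (cysteine) and SARS1 (serine) rose by 1.52, 1.52 and 1.41. VARS1 (valine) fell by 0.59. In mitochondria LARS2 (leucine) fell by 1.15, and CARS2 rose by 0.54.

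The letters TGATGCAA, an element that C/EBP and ATF factors are known to bind, were searched on both strands in the RefSeq GRCh38.p14 window from 250 bases before to 50 bases after each gene's start (the first listed where a gene has several). They occurred in 51 of 10177 tested genes with a window (0.501%), in 13 of 747 genes at least 2-fold higher (1.74%) and in 4 of 573 at least 2-fold lower (0.698%). Among cytosolic synthetases 6 of 16 windows held them, those of AARS1, CARS1, IARS1, MARS1, NARS1 and TARS1, and all 6 were among the 12 called higher. The windows of WARS1 and SARS1, which rose by 1.65 and 1.41, did not hold them. They were in 0 of 11 windows of stress transcription factors, in 1 of 11 of the effectors (CHAC1) and in 1 of 19 of the amino acid transporters (SLC1A3, which fell). The stretches show where the letters lie in the 6 synthetases. They end 179 bases before the start in AARS1 and 5 bases before it in IARS1. In CARS1 and MARS1 they lie across the start, and in NARS1 and TARS1 after it. CHAC1 and HERPUD1, an ER stress gene that rose by 2.89, are set beside the synthetases. Capitals mark the element or its reverse complement on the strand of the gene.
AARS1, chr16:70289656-70289723, minus strand: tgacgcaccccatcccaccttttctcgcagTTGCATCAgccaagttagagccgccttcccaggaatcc
CARS1, chr11:3057418-3057455, minus strand: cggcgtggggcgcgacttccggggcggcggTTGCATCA
IARS1, chr9:92293698-92293740, minus strand: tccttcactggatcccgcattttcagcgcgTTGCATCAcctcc
MARS1, chr12:57488034-57488071, plus strand: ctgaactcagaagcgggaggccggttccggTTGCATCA
NARS1, chr18:57621815-57621852, minus strand: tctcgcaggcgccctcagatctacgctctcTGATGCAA
TARS1, chr5:33440937-33440974, plus strand: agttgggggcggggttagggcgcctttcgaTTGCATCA
CHAC1, chr15:40953232-40953299, plus strand: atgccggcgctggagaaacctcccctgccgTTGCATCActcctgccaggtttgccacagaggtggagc
HERPUD1, chr16:56931936-56932003, plus strand: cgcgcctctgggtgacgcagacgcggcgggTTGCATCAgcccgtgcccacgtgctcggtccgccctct
In 5 synthetases, CHAC1 and HERPUD1 the capitals read TTGCATCA, and in NARS1 they read TGATGCAA. The changes of the synthetases shown ran from 0.32 (TARS1) and 0.32 (NARS1) over 0.62 (IARS1) and 1.0 (MARS1) to 1.52 (AARS1) and 1.52 (CARS1). A match is a description of letters and does not show binding. The cyclic AMP response element TGACGTCA, which ATF family factors also bind, was in 26 of 747 windows of genes at least 2-fold higher (3.48%), in 7 of 573 at least 2-fold lower (1.22%) and in 341 of all 10177 (3.35%).

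The AP-1 element TGACTCA, the site of FOS and JUN dimers, was searched likewise on both strands. It was in 308 of 10177 windows of tested genes (3.03%), in 58 of 747 at least 2-fold higher (7.76%) and in 12 of 573 at least 2-fold lower (2.09%). Shown are 5 of the genes with the element that rose most, with the element or its reverse complement TGAGTCA in capitals.
CD68, chr17:7579508-7579574, plus strand: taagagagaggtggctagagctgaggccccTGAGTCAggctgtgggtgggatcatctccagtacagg
ATG9B, chr7:151024508-151024574, minus strand: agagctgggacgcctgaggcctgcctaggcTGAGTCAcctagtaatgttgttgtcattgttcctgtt
SLC3A2, chr11:62881632-62881698, plus strand: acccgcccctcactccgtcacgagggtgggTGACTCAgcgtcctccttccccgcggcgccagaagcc
DDIT3, chr12:57520719-57520764, minus strand: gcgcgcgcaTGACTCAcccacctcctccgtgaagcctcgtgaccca
FAM25A, chr10:87020157-87020223, plus strand: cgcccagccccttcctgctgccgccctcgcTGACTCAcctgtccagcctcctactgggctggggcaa
FAM25A, whose role is not well described, rose by 3.58. Other genes with the element included PLAUR (the urokinase receptor), up by 3.12, and MT2A (metallothionein 2A), up by 1.79. RNA of AP-1 subunits rose as well, FOSB by 2.79, FOS by 1.46, JUND by 1.16, JUNB by 1.16 and JUN by 1.06, while FOSL1 (0.25) and FOSL2 (-0.16) were not called. Of 35 immediate early and MYC family genes that passed of 39, 20 were higher and 7 lower. EGR1 rose by 2.01, and the inhibitors of differentiation ID3, ID2, ID1 and ID4 fell by 2.77, 2.04, 1.71 and 1.65. MYC fell by 0.38, and MXD1, a repressor that shares its partner MAX, rose by 2.15.

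**Figure D2:**
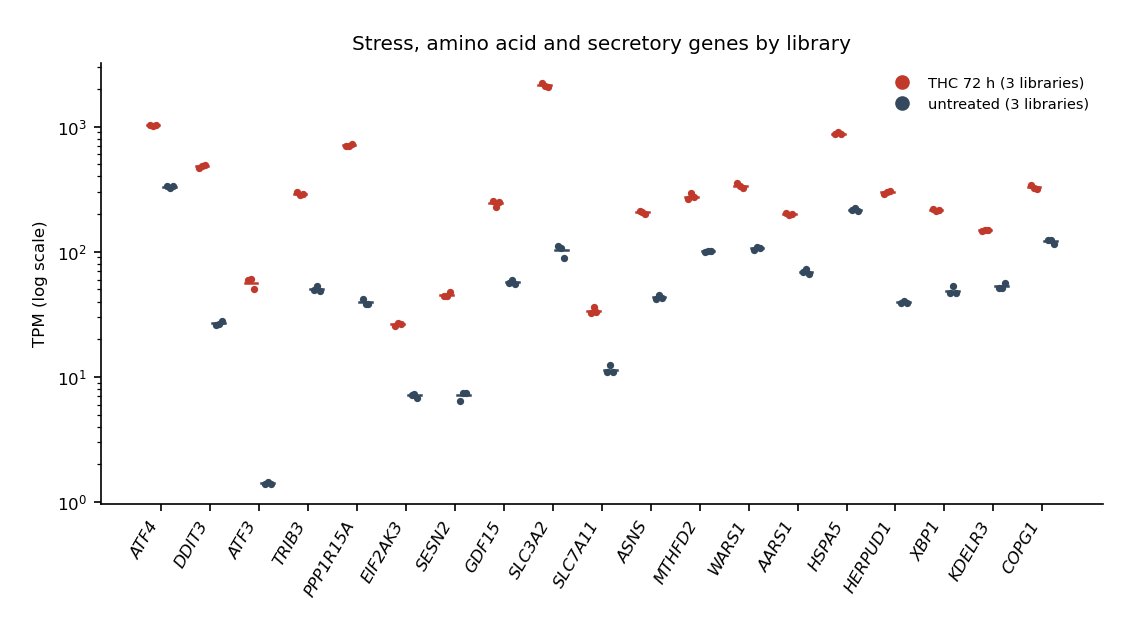
Points are TPM values (log scale) of single libraries, red for THC 72 h and dark blue for untreated, and bars are group means. In each of the 19 genes every 72 h library lies above every untreated one.

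ER and secretory genes were mostly higher. Of 20 chaperones 13 were higher and 2 lower, and of 21 sensors and degradation factors 15 were higher and 4 lower. HSPA5 (BiP), the main ER chaperone, had 864, 906 and 867 TPM after 72 h and 216, 225 and 210.1 TPM in untreated cells, and HERPUD1, which helps export misfolded protein, had 289.5, 299 and 307 TPM after 72 h and 39.1, 40.1 and 39.1 TPM in untreated cells. XBP1 rose by 2.13, ERN1 by 1.60 and DNAJB9 by 2.15, while ATF6 was not called, at -0.09. Foldases did not all follow, with PDIA4 at -0.02 (not called), PDIA6 down by 0.22 and TXNDC5 down by 0.49. SYVN1, the ubiquitin ligase of ER degradation, was at 1.61 after 72 h and 0.51 after 24 h. Vesicle coat, translocon and Golgi genes were called higher in 29 of 41 and lower in 4 (median 0.62, against 0.06 over all genes). SEC24D and SEC31A of the COPII coat rose by 1.54 and 1.07, COPG1 of the COPI coat by 1.43 and KDELR3, a receptor that returns ER proteins, by 1.47. COPG1 had 339, 326 and 319 TPM after 72 h and 124, 124 and 116 TPM in untreated cells. The signal recognition and translocon subunits SRP14 and SEC61B fell, by 0.44 and 0.30.

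Other branches of protein quality control were mostly lower. Of 24 cytosolic and mitochondrial heat shock chaperones 17 were lower and 4 higher (median -0.47). HSP90AA1 fell by 1.24 and had 682, 695 and 633 TPM after 72 h and 1603, 1611 and 1533 TPM in untreated cells. The mitochondrial pair HSPD1 and HSPE1 fell by 1.03 and 1.39, and the chaperonin subunits CCT2 and CCT5 by 0.87 and 0.87. HSPA9, the import motor of mitochondria, and the small chaperone CRYAB rose by 0.57 and 1.70. Proteasome genes were lower in 25 of 32 and higher in 4, with PSMD1 down by 1.09 and PSMA2 by 1.05. NFE2L1, the factor that raises proteasome genes, was itself higher by 0.64.

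Autophagy genes rose in 23 of the 31 that passed, and 3 fell (median 0.33). MAP1LC3B, which coats the growing autophagosome, had 223, 237 and 231 TPM after 72 h and 37.8, 44.5 and 40.2 TPM in untreated cells. SQSTM1 (p62), a cargo receptor, rose by 1.44, GABARAPL1 by 2.02, WIPI1 by 2.05 and ATG9B, a lipid scramblase, by 4.46. Lysosomal genes were mixed, with 14 of 29 higher and 7 lower, but 10 of 15 subunits of the proton pump were higher and 1 lower. LAMP3 had 22.0, 21.4 and 25.7 TPM after 72 h and 3.04, 2.88 and 2.75 TPM in untreated cells. The hydrolases CTSL and NEU1 rose by 1.61 and 1.39, while CTSC and LIPA, the acid lipase, fell by 1.39 and 0.88. LAMP1, an abundant membrane protein of lysosomes, fell by 0.39. FLCN, RRAGC and RRAGD, which pass the state of lysosomes to mTORC1, rose by 0.75, 0.88 and 0.78, and TSC2, an inhibitor of mTORC1, by 1.04.

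All 13 messages of mitochondrial DNA were called lower and none of their groups overlapped. Their summed level was 9314, 10975 and 11065 TPM after 72 h, against 72738, 67069 and 73935 TPM in untreated cells. MT-CO2, a core subunit of cytochrome oxidase, had 1135, 1271 and 1272 TPM after 72 h and 17567, 14918 and 17489 TPM in untreated cells. The median log2 change of the 13 was -2.69 after 72 h and -1.18 after 24 h. The mitochondrial rRNAs divided. MT-RNR1, the small rRNA, rose to 963, 1043 and 1041 TPM after 72 h, against 616, 573 and 652 TPM in untreated cells, and MT-RNR2, the large one, fell to 1358, 1583 and 1558 TPM, against 2207, 2368 and 2319 TPM. Nuclear copies of mitochondrial DNA can share reads with these genes, so their levels are uncertain.

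Subunits of the same complexes that are encoded in the nucleus had smaller median changes. Complex I had 32 of 37 nuclear subunits lower and 1 higher (median -0.45), complexes II and III 12 of the 13 that passed lower, complex IV 11 of 19 lower and 5 higher, and ATP synthase 17 of 18 lower (median -0.64). NDUFB3 of complex I fell by 1.37, and ATP5MC1, of the rotor ring, had 149, 185 and 170.3 TPM after 72 h and 441, 439.6 and 512 TPM in untreated cells. COX4I1, a nuclear subunit of cytochrome oxidase, was not called, at 0.01. SDHA of complex II, which has near-identical copies, fell by 1.59. Mitochondrial ribosomal proteins were lower in 51 of 77 and higher in 8 (median -0.36). Of the factors that copy, transcribe and stabilise mitochondrial DNA and its RNA, 15 of 28 were lower and 5 higher. TFAM, which packs the DNA, fell by 0.51, and SLIRP and LRPPRC, a pair that stabilises mitochondrial mRNA, by 1.06 and 0.47. The polymerase POLRMT was not called, at 0.16, and LRPPRC had a change of 0.23 after 24 h. In the citric acid cycle 14 of 20 enzymes were lower and 4 higher, CS (citrate synthase) by 0.79 and DLD by 1.2, while PCK2, the mitochondrial carboxykinase, rose by 1.34.

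**Figure D3:**
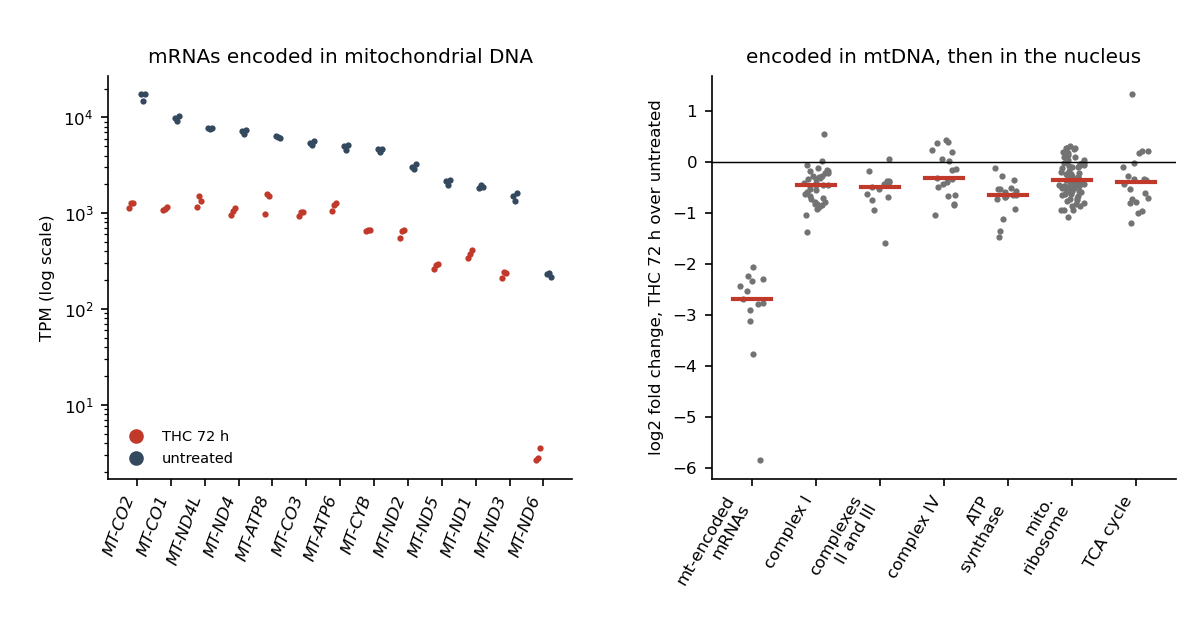
On the left, TPM (log scale) of the 13 messages of mitochondrial DNA in each library, red for THC 72 h and dark blue for untreated. On the right, the log2 change of each gene that passed in 7 lists, with red bars at the medians, which lie at -2.69 for the encoded messages and between -0.64 and -0.31 for the nuclear lists.

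Genes of sterol synthesis were lower throughout. All 20 enzymes of cholesterol synthesis passed and all 20 were called lower (median -1.07). ACAT2, which joins acetyl units at the start of the route, had 6.76, 7.66 and 7.16 TPM after 72 h and 39.3, 40.9 and 40.9 TPM in untreated cells. SQLE and HMGCS1 fell by 1.85 and 1.64. Among regulators INSIG1, the ER anchor of SREBP, fell by 2.27. SREBF1 and SREBF2, which encode the factors, fell by 1.31 and 0.80, while SCAP, their escort, and the activating proteases MBTPS1 and MBTPS2 were not called, at -0.14, 0.00 and 0.00. INSIG1 had 16.5, 21.2 and 19.9 TPM after 72 h and 91.7, 101 and 95.5 TPM in untreated cells, with a mean of 59.1 TPM after 24 h. The sterol element TCACNCCAC was in none of 15 cholesterol synthesis windows, in 112 of 10177 windows of tested genes and in 2 of 573 at least 2-fold lower, while the CCAAT letters, searched on both strands like all elements, were in 12 of the 15, against 37.3% of all windows. No match says only that these letters are not in the window.

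Fatty acid enzymes split. Of the 19 that passed of 25, 12 were lower and 4 higher, with FASN down by 2.04, ACSL1 (which activates fatty acids) by 2.62 and ELOVL6 by 1.28. OLAH, a thioesterase that releases medium-length fatty acids, had 3.84, 4.14 and 3.36 TPM after 72 h and 0.0339, 0.0170 and 0.0195 TPM in untreated cells, and FADS3 rose by 1.02. Of 24 fatty acid oxidation genes that passed 13 were lower and 6 higher. ACADVL, for very long chains, rose by 1.21, and CPT1B, a muscle-type carnitine transferase, by 1.12. ANGPTL4, an inhibitor of lipoprotein lipase, had 0.943, 0.706 and 0.597 TPM after 72 h and 10.3, 11 and 9.93 TPM in untreated cells, and its log2 change was -2.71 after 72 h and 0.49 after 24 h. Ceramide and sphingolipid genes were higher in 13 of 24 and lower in 5, among them CERS1 (1.06), KDSR (1.06) and UGCG (0.89). Glycerolipid and lipid droplet genes were higher in 13 of 28 and lower in 10, a balance that turned round when each library was centred on its median (11 higher, 13 lower). PNPLA2, the main lipase of droplets, rose by 0.89 and LPCAT3, which puts unsaturated chains into phospholipids, fell by 1.87.

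RNA of the THC receptors was at or near 0. CNR1 had a listed level of 0 throughout, and CNR2 stood at 0.0204, 0.00559 and 0.00603 TPM after 72 h and 0.0100, 0.0101 and 0.00576 TPM in untreated cells. Of 22 listed genes of cannabinoid reception and turnover 13 passed, and 8 were higher and 3 lower (median 0.51). TRPM8 and TRPV1, ion channels that cannabinoids can modulate, rose by 0.92 and 0.61, and the receptor GPR55 by 0.67, with 1.56, 1.47 and 1.42 TPM after 72 h and 0.564, 0.477 and 0.641 TPM in untreated cells. GPR55 passed the filter only through its 72 h values, so its direction among these counts was fixed by the filter. FAAH, which breaks down anandamide, rose by 0.48, and NAPEPLD, which makes it, fell by 0.57. The log2 changes of TRPV1 and of the nuclear receptor PPARG were 0.61 and 0.53 after 72 h, and -0.84 and -0.65 after 24 h. Of 22 xenobiotic genes 9 passed, and 4 of these were higher and 4 lower. UGT2B7, which conjugates drugs with glucuronic acid, fell by 1.37, while POR, which passes electrons to P450 enzymes, had 325, 289.9 and 293 TPM after 72 h and 82.8, 89.5 and 80.5 TPM in untreated cells. CYP3A4, an enzyme that oxidises drugs in liver, averaged under 1 TPM in both groups.

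Glycolysis genes were lower in 18 of 23 that passed and higher in 3 (median -0.98). LDHA, which makes lactate, had 785, 726 and 661 TPM after 72 h and 2659, 2839 and 2612 TPM in untreated cells. PGK1, TPI1, ENO1 and PKM fell by 1.58, 1.56, 1.47 and 1.24. PGAM1, which has near-identical copies, fell by 2.11, and PFKFB4 by 2.07. SLC2A1, the glucose transporter GLUT1, rose by 0.21, a call that was lost with libraries centred on their medians (0.12), and the upper enzyme PFKP was not called, at -0.08. HIF1A, the hypoxia factor, fell by 1.35, and its known targets BNIP3, EGLN3 and MIR210HG by 2.01, 1.76 and 2.69. Yet NDRG1 and VEGFA, also known targets, rose by 2.04 and 0.72. NDRG1 had 520.4, 467 and 506 TPM after 72 h and 121, 124 and 116 TPM in untreated cells. Over the hypoxia list 12 of 18 were lower and 4 higher.

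Cell cycle genes were lower as a group. Of 42 DNA replication genes 40 were called lower and none higher (median -0.83), and of 40 mitosis genes 39 were lower and none higher (median -0.81). The background share called lower was 33.0%. MKI67, the proliferation marker Ki-67, had 40.7, 40.5 and 42.5 TPM after 72 h and 130.3, 139 and 130.3 TPM in untreated cells. ANLN of the cleavage furrow and LMNB1, a nuclear lamin, fell by 1.82 and 1.61, CDC6 of origin licensing by 1.31 and CCNB1 by 1.21. E2F letters (TTCGCGC or TTGGCGC) were in 16 of 37 replication windows, against 8.84% of all windows. CCAAT was in 24 of 34 mitosis windows and 22 of 37 replication windows, and on the other strand it can share bases with an E2F match. Among G1 regulators 15 of 24 were lower and 4 higher, with CDK2 down by 0.90, CCND1 by 0.40 and the inhibitors CDKN2A and CDKN2C by 1.2 and 1.52. CCNE1 was not called, at -0.14. Repair genes were lower in 17 of 25 and higher in 3. H2AX fell by 1.53, and ATM, the double-strand break kinase, rose by 1.05.

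The rise of CDKN1A did not extend to all listed p53 targets. Of 23 that passed 10 were higher and 3 lower, against 40.0% higher and 33.0% lower over all genes. The count of higher members is near that share and is not read as a trait of p53 targets. GADD45A and BBC3 (PUMA, a killer protein of the BCL2 family) rose by 1.59 and 1.43, PLK3 by 1.16 and PMAIP1 (NOXA) by 1.21. DDB2, FDXR, ZMAT3 and BAX were not called, at 0.09, -0.04, -0.09 and 0.10. MDM2, the negative regulator and target of p53, fell by 0.54, and the death receptor FAS by 1.12. In the BCL2 and caspase list 12 of 23 were higher and 8 lower, to be read against the same 40.0% and 33.0%. BCL2L11 (BIM) rose by 0.89 and MCL1 by 0.87, and BCL2L1 (BCL-XL) fell by 1.14. BCL2L1 had 239.8, 223 and 235 TPM after 72 h and 508, 533 and 505 TPM in untreated cells. CASP4, which senses bacterial lipid, rose by 2.17, and APAF1, the scaffold of the apoptosome, fell by 1.44. TNFRSF10B (DR5), a receptor of the ligand TRAIL, rose by 0.83, while that ligand, TNFSF10, fell by 1.11.

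Ribosomal proteins took a larger part of the RNA. Of 79 genes 69 were called higher and 2 lower (median 0.50; 64 higher and 3 lower with libraries centred on their medians), against 40.0% higher over all genes. Their sum was 208696, 212678 and 208617 TPM after 72 h, and 145949, 139805 and 145689.7 TPM in untreated cells. RPL10 rose by 1.29 and RPS27 by 1.28, while RPL10A fell by 0.13, all with copies that can share reads. Ribosome assembly went the other way, with 25 of 39 factors lower and 8 higher, NCL (nucleolin) by 0.75 and FBL (fibrillarin) by 0.72. Among translation factors EIF1, which selects start codons, rose by 1.55 and EEF2 by 0.88. EIF4EBP1, which holds back the cap-binding protein, rose by 1.05, and that protein, EIF4E, fell by 0.76. EIF5A had 522, 523 and 533 TPM after 72 h and 1330.0, 1356 and 1405 TPM in untreated cells.

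Host genes of small nucleolar RNAs, whose spliced transcripts are degraded during translation, were higher in 14 of 15 (median 1.08). GAS5 had 974, 1146 and 1086 TPM after 72 h and 161, 165 and 177 TPM in untreated cells, ZFAS1 rose by 1.99 and SNHG29 by 1.62, and SNHG3 was not called, at 0.09. Other long non-coding RNAs were higher in 13 of the 16 that passed and lower in none. The nuclear RNAs NEAT1 and MALAT1 rose by 1.37 and 1.42. TUG1 and NORAD had log2 changes of 0.96 and 0.79 after 72 h, and -0.52 and -0.41 after 24 h. By RefSeq class, 440 of 877 lncRNA genes were higher (50.2%) and 179 lower, 175 of 258 transcribed pseudogenes were higher (67.8%) and 26 lower, and 4372 of 11420 protein-coding genes were higher (38.3%) and 4139 lower. Genes at least 2-fold higher had a median span of 19888 bases, those at least 2-fold lower 34161 bases, and all tested genes 30039 bases. Nonsense-mediated decay factors were mixed, with 5 of 14 higher and 3 lower, UPF1 down by 0.44. Splicing factors were lower in 20 of 31 and higher in 8. SRSF3, SRSF2 and SRSF1 fell by 1.40, 1.04 and 0.92, while CLK1 and CLK4, kinases of these factors, rose by 0.90 and 0.86 and the cold-inducible CIRBP by 1.23. Nuclear pore and import genes were lower in 21 of 25, with NUP210 down by 1.36 and the importin KPNA2 by 1.16.

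**Figure D4:**
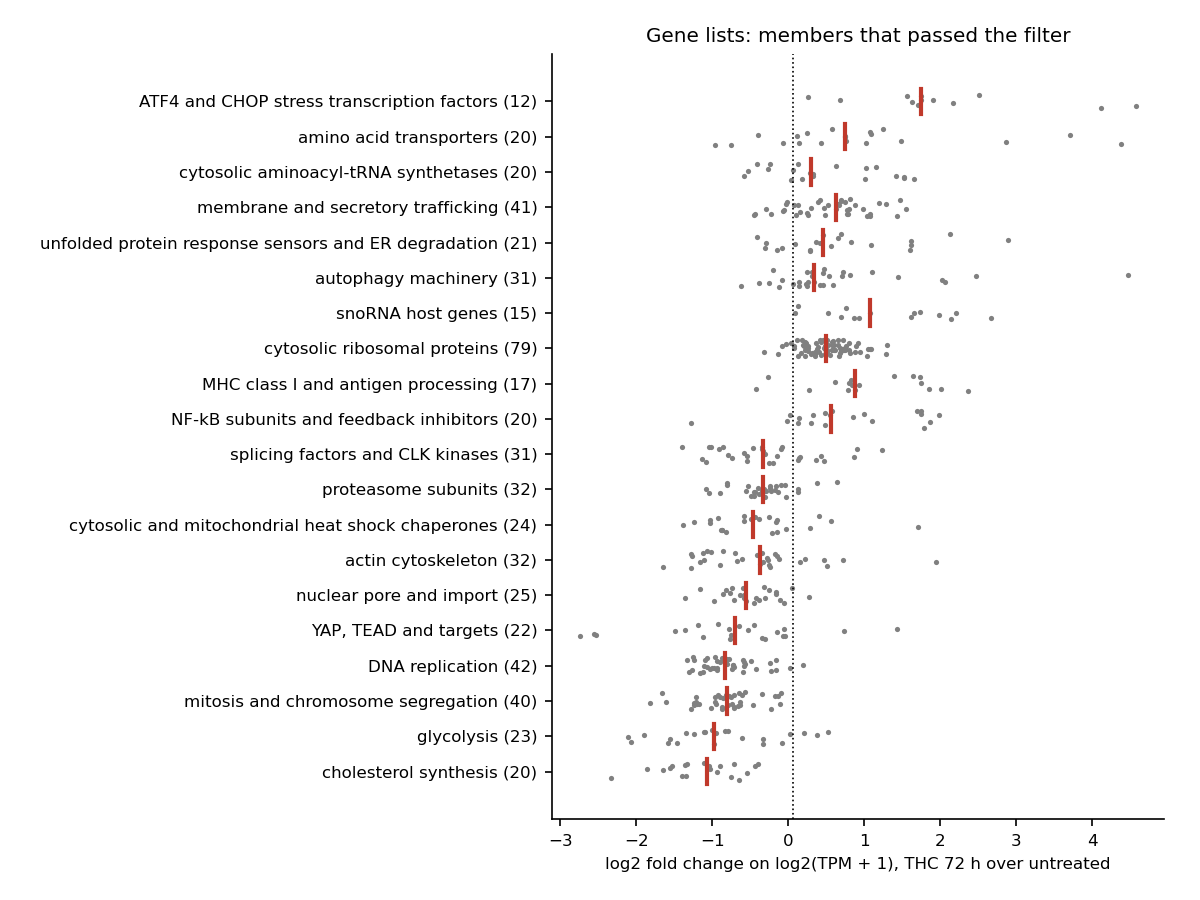
Each grey point is 1 gene that passed the filter, placed by its log2 change (THC 72 h over untreated), red bars are medians of lists, the number of genes stands in brackets, and the dotted line is the median of all 13943 tested genes. Medians run from 1.75 for stress transcription factors to -1.07 for cholesterol synthesis.

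Chromatin regulators changed in both directions. Of 26 SWI/SNF subunits that passed 14 were lower and 6 higher, none by 2-fold. ARID1A, a DNA-binding subunit often mutated in endometrial cancer, had 32.9, 32.3 and 36.1 TPM after 72 h and 49.4, 53.1 and 51.0 TPM in untreated cells, a log2 change of -0.59. The ATPase SMARCA4 fell by 0.73, and its alternative SMARCA2 and the ARID1A relative ARID1B were not called, at -0.05 and -0.09. Of 21 genes that write or erase H3K4 methylation 9 were higher and 6 lower, which turned to 7 and 9 with libraries centred on their medians. The demethylase KDM5B rose by 0.99, and the writers KMT2A and KMT2D were not called, at -0.13 and -0.07. Of 41 deacetylases, acetyltransferases, Polycomb and DNA methylation genes 19 were higher and 18 lower, which turned to 15 and 19 under the same centring. HDAC5 rose by 1.95 and EZH1 by 1.27, whereas HDAC1 fell by 0.98, EZH2 by 0.55, and UHRF1, which guides maintenance methylation, by 1.18. Histone genes divided too, with 10 of the 17 that passed higher, among them H2BC5 (2.32) and H2AC6 (2.31), and 6 lower, mainly replacement variants such as H2AZ2 (-1.07) and H3-3A (-1.0). Histone genes resemble each other and are uncertain.

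Antigen presentation genes were mostly higher after 72 h. Of 21 MHC class I and processing genes 17 passed, of which 15 were called higher and 2 lower (median 0.88, against 0.20 after 24 h). HLA-C had 721, 710.3 and 795 TPM after 72 h and 198, 199 and 216 TPM in untreated cells, and HLA-B had 352, 343 and 321 TPM after 72 h and 108, 99.9 and 96.9 TPM in untreated cells. B2M, the light chain, rose by 0.88, TAP1, which pumps peptides into the ER, by 1.74, and NLRC5, the activator of these genes, by 2.01. HLA genes are alike, so single HLA levels are uncertain. TAP1 had 111, 105 and 107 TPM after 72 h and 29.9, 33.0 and 31.6 TPM in untreated cells, and the 72 h against 24 h contrast was 1.54 (limma, adjusted p = 1.12e-08).

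Interferon genes were mixed. Of 32 that passed of 48 listed 18 were higher and 8 lower. IRF1, IRF9 and STAT2 rose by 1.49, 1.41 and 1.07, and RSAD2 (viperin) by 2.27. ISG15, a ubiquitin-like protein, had 154, 124 and 128 TPM after 72 h and 132, 138 and 117 TPM in untreated cells, which overlapped, with a mean of 833 TPM after 24 h. IFIT2 and OASL were not called after 72 h, at -0.01 and 0.06, and stood at 1.46 and 2.18 after 24 h. IFIT1 fell to 17.1, 18 and 16.7 TPM after 72 h, against 29.0, 29.9 and 29.7 TPM in untreated cells, with a mean of 98.0 TPM after 24 h. NF-kB genes were higher in 13 of 20 and lower in 1. RELB and NFKB2 of the alternative pathway rose by 1.86 and 1.74, the inhibitor NFKBIA by 1.79 and RELA by 0.99, while NFKB1 was not called, at 0.14. Of 40 cytokine and receptor genes only 19 passed. IL32 and the growth factor AREG rose by 2.47 and 1.5, CCL5 by 1.15 after 72 h, against 4.40 after 24 h, and TNFSF9 (4-1BB ligand) fell by 1.90. CSF2 (GM-CSF) stood at 2.56, 2.19 and 2.95 TPM after 72 h and 0.0823, 0 and 0.0472 TPM in untreated cells, and CSF1 rose by 1.33. IL6 and CXCL8 were below 1 TPM in both groups.

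**Figure D5:**
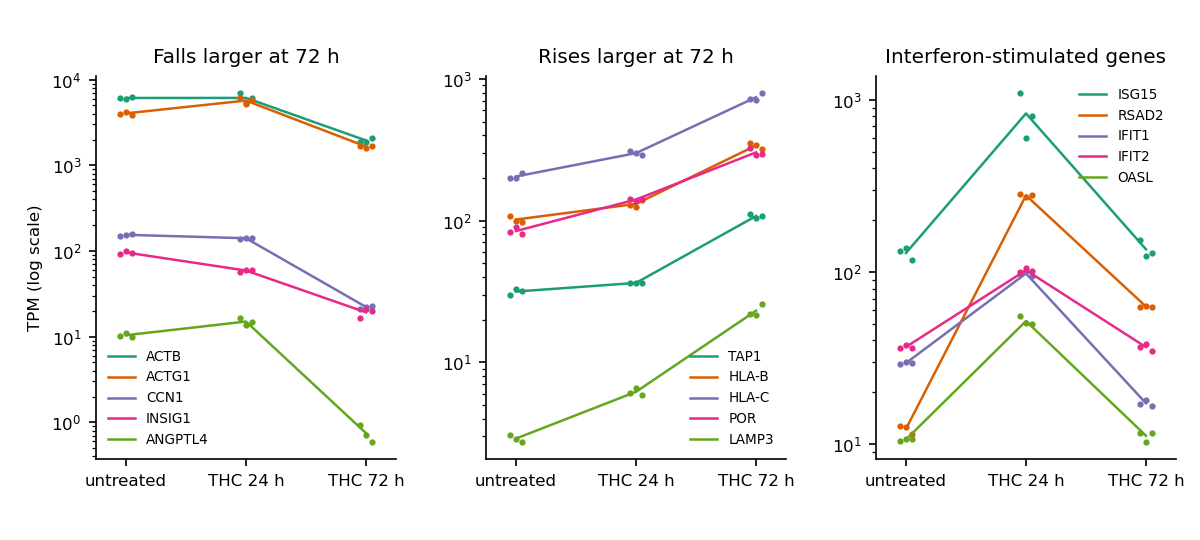
TPM (log scale) in untreated cells, after 24 h and after 72 h of THC, with points for libraries and lines through the means of 15 genes chosen after their values were seen. The genes of the left panel were lowest and those of the middle panel highest after 72 h, while the interferon-stimulated genes of the right panel were highest after 24 h.

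The matrix and its receptors were lower in 19 of 29 genes and higher in 8. ITGB3, an integrin beta chain, had 22.4, 23.3 and 23.7 TPM after 72 h and 137, 147 and 135 TPM in untreated cells. Another, ITGB8, had 8.73, 9.54 and 9.86 TPM after 72 h and 58.1, 69.4 and 59.8 TPM in untreated cells. The basement membrane genes LAMA5, LAMC1 and COL4A1 fell by 1.81, 1.58 and 1.98, while the laminin chains LAMA3 and LAMB3 rose by 0.69 and 1.41. LAMB1 had a change of -1.12 after 72 h and 0.38 after 24 h. Tenascin-C (TNC) rose by 2.00. PLAUR had 240.1, 241 and 273 TPM after 72 h and 28.9, 27.1 and 28.1 TPM in untreated cells. The collagenase MMP1 rose by 2.87, but it averaged 0.0947 TPM in untreated cells, so its direction was fixed by the filter. Urokinase itself, PLAU, narrowly missed a call, at 0.08 (limma, adjusted p = 0.050007), and its groups did not overlap. PLAU averaged 202 TPM after 72 h, 191 TPM in untreated cells and 769 TPM after 24 h. TIMP1, an inhibitor of metalloproteinases, rose by 1.09. The shedding proteases ADAM9 and ADAM10 fell by 1.73 and 1.56.

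Targets and partners of the mechanosensitive YAP factors were lower in 17 of 22 and higher in 2 (median -0.71). CCN1 had 21.2, 22.3 and 23.1 TPM after 72 h and 150.3, 156 and 158 TPM in untreated cells, AMOTL2 fell by 2.54 and TEAD1 by 1.37. CCN1 averaged 141 TPM after 24 h, and the 72 h against 24 h contrast was -2.61 (limma, adjusted p = 4.61e-10). F3 (tissue factor) and NT5E rose by 1.42 and 0.73, and ANKRD1 was not called, at -0.06. Actin genes were lower in 26 of 32 and higher in 5. ACTB had 1885, 1857 and 2109 TPM after 72 h and 6059, 5957 and 6308 TPM in untreated cells, ACTG1 fell by 1.29, ACTN4 by 1.28 and VCL (vinculin) by 1.26. The bundling protein LCP1 rose by 1.94. ACTB averaged 6116 TPM after 24 h. Of 15 genes listed with the tubulins, the tubulin-binding protein STMN1 included, 9 were lower and 4 higher, with TUBA1B down by 1.73 and TUBB by 1.33.

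Among epithelial identity genes changes were mostly under 2-fold. Of 28 adhesion and splicing genes that passed 14 were lower and 4 higher, and only ST14 (matriptase) fell at least 2-fold. CDH1, E-cadherin, had 79.9, 76.3 and 73.5 TPM after 72 h and 96.5, 104 and 103 TPM in untreated cells, and ESRP1, an epithelial splicing factor, rose by 0.69. KRT13, a keratin of squamous layers, fell to 0.152, 0.0722 and 0.0587 TPM after 72 h, against 5.30, 5.05 and 5.78 TPM in untreated cells. KRT18 rose by 0.93, and its partner KRT8 was not called, at 0.08. Mesenchymal genes split 5 to 5 among 11, with ZEB1 and VIM up by 1.63 and 1.11 and TGFBR2 down by 1.18. CD44, an adhesion receptor, had 492, 499 and 488 TPM after 72 h and 119, 115 and 118 TPM in untreated cells. PAX8, a lineage factor of the Müllerian tract, rose by 0.32, while SOX17 fell by 1.05, and ELF3 had a change of -0.76 after 72 h and 0.69 after 24 h. The receptors ESR1 and PGR were listed at or near 0.

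Growth signalling genes were lower in 17 and higher in 10 of the 35 that passed. FGFR4, a fibroblast growth factor receptor, had 11.4, 11 and 13.2 TPM after 72 h and 76.9, 82.7 and 80.6 TPM in untreated cells, a fall of 2.66 on the log2 scale. FGFR3 fell by 1.60, EGFR by 0.26 and the kinase MET by 0.29. PIK3CA, a catalytic subunit of PI3K, rose by 0.44. RPTOR, a subunit of mTORC1, was not called, at 0.05. EPHA2 and AXL, receptor kinases, had log2 changes of -0.59 and -0.53 after 72 h, and 0.69 and 0.37 after 24 h. Ion transport genes were higher in 9 and lower in 12 of 28. The potassium channel KCNJ16 had 3.03, 2.97 and 3.61 TPM after 72 h and 33.0, 39.3 and 36.3 TPM in untreated cells, and the sodium pump subunit ATP1B1 fell by 0.98. The store sensor STIM1 rose by 0.76 and its channel ORAI1 fell by 0.50.

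In redox and metal handling the groups were split. Genes of the NRF2 programme were higher in 11 of 24 and lower in 11. SRXN1, which repairs peroxiredoxins, rose by 1.16, whereas NQO1, a classical NRF2 target, fell by 0.75, GSR by 1.25 and TXNRD1 by 0.43. HMOX1, haem oxygenase, had 229.6, 225 and 238 TPM after 72 h and 10.6, 11.5 and 10.7 TPM in untreated cells, and TFRC, the transferrin receptor, fell by 0.46. Of 21 iron and haem genes that passed 11 were higher and 7 lower, and the haem synthesis enzyme FECH fell by 0.40. ACO1 and IREB2, the RNA-binding proteins that hold back ferritin translation when iron is scarce, fell by 0.68 and 0.39. ACSL4, which puts polyunsaturated chains into a form that membranes take up, fell by 1.12. MT1X and MT2A, which bind zinc and copper and belong to a family of similar genes, rose by 2.66 and 1.79. The zinc importers SLC39A10 and SLC39A4 fell by 1.13 and 0.93, and the exporter SLC30A5 rose by 1.41.

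Peak lists of the same line were set beside the RNA. H3K4me3 peaks of all 6 libraries met the window in 77.1% of genes at least 2-fold higher, 84.5% of those at least 2-fold lower and 88.9% of all tested genes. ATAC peaks of all 6 libraries met it in 53.7%, 56.9% and 67.6% of these. The ATAC lists held 39144 to 81665 peaks after 72 h and 65867 to 152359 in untreated cells, so the lists differ in length, and the part of this in the listed windows was not tested. How long THC was given before H3K4me3 CUT&RUN is not stated. Among genes changed at least 2-fold, a H3K4me3 peak was listed in 3 of 3 THC libraries and 0 of 3 untreated ones at ADM2 and GPR137B, which rose by 2.52 and 1.53, and at ASB9, which fell by 1.21. Over all 10177 windows this held for 17. The reverse held at PTGS1, cyclooxygenase-1, which had 23.0, 24.3 and 23.1 TPM after 72 h and 71.3, 69.1 and 70.8 TPM in untreated cells, and for 2 of all 10177. ATAC peaks listed in all untreated and no 72 h libraries stood at 7 of the 747 genes at least 2-fold higher (0.937%), CD44 and VAMP2 among them, at 4 of the 573 at least 2-fold lower (0.698%), LAMA5 among them, and at 54 of all 10177 (0.531%). With counts this small and shares near that of all windows, nothing is read from them about genes that changed.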

How the data were processed

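RNA of 9 HEC-1A libraries was given as TPM, per the labels from a stranded total RNA kit, deposited by the authors as 1 table. The submitters' processing notes name Salmon, Trim Galore and FastQC and the build GRCh38, without roles. TPM holds no read depth, so no counting error can be given. Peak lists were deposited with −log10 q values by the authors, and the notes name MACS3 and MACS2 2.2.7.1; here only positions were used.

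The 3 THC 72 h and 3 untreated libraries were compared with limma 3.58.1 (R 4.3.3; trended empirical Bayes, 3 groups of 3, 6 residual degrees of freedom) on log2(TPM + 1), keeping genes whose TPM averaged 1 or more in these 6. P-values were adjusted by Benjamini-Hochberg over 13943 genes, with 0.05 as threshold, and the code was tested on simulated data. Named were the 15 largest changes each way (mean TPM of at least 5, groups not overlapping), the largest gains and losses in TPM, the 5 largest changes each way at a mean TPM of at least 100, core genes and up to 4 called members each way of 76 gene lists; further list members, the genes with listed or missing peaks and those drawn over time were chosen after their values were seen. Members and lists were chosen with earlier results of these data known. Promoter windows (RefSeq, GRCh38.p14) ran from 250 bases before to 50 after the start, and 10177 tested genes had one. Alternatives were the pseudocount, the filter, 2 scalings, the 6 libraries alone, a replicate block and leaving out each library. Some genes are not reported here.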

Additional observations from a re-analysis of the deposited data

Results flagged for a closer look

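Several genes named above were called in opposite directions after 24 h and after 72 h of THC, and the contrast between the times, fitted in limma over 9 libraries, was called as well. Of all tested genes 1568 did so, and 882 of them had changes of at least 0.3 on the log2 scale at both times, 811 higher after 72 h and lower after 24 h, and 71 the other way. After 24 h, 24.1% of all tested genes were called higher and 52.3% lower. The 24 h and between-time values were taken under the main scaling only, and the part of scaling in these counts was not tested. The named genes below were picked for the report by their groups and do not show the balance of 811 to 71. Both comparisons use the same untreated libraries, whereas the contrast between the times (72 h minus 24 h, log2) uses none of them. Yet this contrast equals the 72 h change minus the 24 h change, so with opposite calls it is no separate support. It was -3.2 for ANGPTL4, -2.44 for IFIT1, -1.78 for the actin gene ACTG1, -1.51 for LAMB1, -1.45 for ELF3, -1.3 for the mitochondrial rRNA MT-RNR2, -1.28 for EPHA2, -0.9 for AXL and -0.77 for CDH1, all lower after 72 h. It was 0.97 for GPR55, 1.18 for PPARG, 1.2 for NORAD, 1.23 for SLC38A2, 1.46 for TRPV1, 1.47 for TUG1 and 2.01 for ATF5, all higher after 72 h. GPR55 passed the filter only through its 72 h values, with means of 0.265 TPM after 24 h and 0.561 TPM in untreated cells. ACTG1 averaged 1656 TPM after 72 h and 5698 TPM after 24 h, with 4041 TPM in untreated cells. MT-RNR2 averaged 1499.7 TPM after 72 h and 3690.5 TPM after 24 h, with 2298 TPM in untreated cells. The groups hold 3 libraries each, so single libraries that stand apart were not searched for.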

How the results depend on the processing

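The counts of genes called higher and lower stayed within 1.5 times their values under each alternative run. They were 5500 and 4545 with a pseudocount of 0.1, 4279 and 3951 among genes averaging 5 TPM or more, 6987 and 5210 with every gene above 0, and 5634 and 4650 in a fit of the 6 libraries alone. Centring each library on its median gave 4826 higher and 5439 lower, and rescaling without genes of mitochondrial DNA 4878 and 5328, so which direction holds more calls depends on the scaling. Leaving out single libraries gave 5188 to 5450 higher and 4199 to 4428 lower. With the replicate number as a replicate block the counts were 5581 and 4606. Same-numbered libraries deviated from their group means with correlations of 0.037, -0.0554 and 0.2248, so the numbers were not taken to pair them. In 3 lists the larger side turned round under both scalings. With centring and with rescaling, H3K4 methylation genes came to 7 higher in both, deacetylase and Polycomb genes to 15 in both, and glycerolipid genes to 11 and 12, and the cause was not tested. Of 374 named genes tested 345 were called, and 3 of these calls were lost in at least 1 alternative, those of EIF2AK2, EIF2AK4 and SLC2A1. In all, 17 named genes changed label in at least 1 alternative, and those that lost no call gained one. Median centring gave a call to 8 named genes not called in the main run, and rescaling without mitochondrial genes to 7. Whether a named gene is given as not called can therefore depend on the scaling. TPM holds no depth, so what counting error limits cannot be given.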
